A study of Mus musculus with 27 samples.

Results

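The 248 genes described here had a read count on chromatin of cortical neurons within 0.5 to 2 times that of embryonic stem cells, and at least 8 times as many reads in the cytoplasm of the neurons. They were picked from a table of 37332 genes by CPM (a gene's share of all reads counted in the library, scaled to a common total). A gene entered when its mean chromatin level was 5 CPM or more in both cell types, when the neuron-to-stem-cell chromatin ratio lay between 0.5 and 2, when its neuron cytoplasm level was 5 CPM or more, and when its cytoplasm ratio, with 0.1 CPM added to both means, was 8 or more. Gabbr1 and the genes of the mitochondrial genome were left out by the rule. Of the 3568 genes that met the chromatin limits and the neuron cytoplasm level, the other 3320 stayed below the cytoplasm ratio of 8 and serve as the comparison set, called the other steady genes.

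Total RNA longer than 200 nt, depleted of ribosomal RNA, had been sequenced from chromatin, soluble nucleoplasm and cytoplasm of 3 mouse cell types. These were primary cortical neurons after 5 days in culture (mCtx), a neural progenitor line established in the submitters' laboratory and grown with EGF and FGF (mNPC), and embryonic stem cells of the E14 line grown on gelatin with LIF (mESC). The labels name no genetic change in any group. Each of the 9 groups held 3 biological replicates, so there were 27 libraries, with 11249862 to 19871198 counted reads each. Both lines are single lines, so the libraries of mNPC and of mESC measure the spread between cultures of 1 line, and p-values measure only the spread between these samples.

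The rule used the chromatin and cytoplasm libraries of mCtx and mESC, so values from those libraries are given as a description with no test. Tests were made in the nucleoplasm of all 3 cell types and within mNPC, whose libraries the rule did not use. Nucleoplasm libraries of mCtx and mESC may still come from the same cultures as the libraries that chose the genes.

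RNA is made and largely spliced on chromatin, released into the nucleoplasm and exported, and its level in the cytoplasm depends on export and decay as well as on synthesis. Messages of many membrane and secreted proteins are translated at the endoplasmic reticulum, whose membrane is continuous with the outer envelope of the nucleus. Many are recognised there through a hydrophobic stretch of the nascent protein. Neurons carry an extended secretory and endosomal system that supplies axons, dendrites and synapses with such proteins.

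Many of the genes turned out to encode proteins with a hydrophobic stretch. It was searched for in the coding sequence of each gene (GENCODE vM21 transcripts, GRCm38, the assembly also called mm10) as a window of 19 codons whose residues average 1.6 or more on the Kyte-Doolittle hydropathy scale. Whether a stretch is recognised at the endoplasmic reticulum is not told by the search. It also counted Ttc3, a ubiquitin ligase (2.04), and Lars2, a mitochondrial tRNA synthetase (1.63). The 6 examples that recur below are printed with the 19 most hydrophobic codons in capitals, 5′ to 3′, flanked by up to 15 bases on each side.
Serinc1: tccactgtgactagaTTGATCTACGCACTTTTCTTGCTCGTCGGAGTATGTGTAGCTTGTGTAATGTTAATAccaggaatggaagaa
Slc1a3: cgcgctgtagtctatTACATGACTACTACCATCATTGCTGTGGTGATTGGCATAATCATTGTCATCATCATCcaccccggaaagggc
Clstn1: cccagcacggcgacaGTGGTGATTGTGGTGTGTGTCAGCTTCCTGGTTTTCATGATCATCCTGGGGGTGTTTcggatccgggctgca
Atp6ap2: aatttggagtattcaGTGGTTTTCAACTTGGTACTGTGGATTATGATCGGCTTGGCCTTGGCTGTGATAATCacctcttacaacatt
Atp6v0c: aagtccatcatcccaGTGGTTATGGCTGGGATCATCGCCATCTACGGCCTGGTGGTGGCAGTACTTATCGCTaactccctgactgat
Vamp2: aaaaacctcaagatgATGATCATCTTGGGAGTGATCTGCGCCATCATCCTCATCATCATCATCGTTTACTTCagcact

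The capitals cover codons 40 to 58 of 453 in Serinc1 (mean hydropathy 2.97), 127 to 145 of 543 in Slc1a3 (2.79), 862 to 880 of 979 in Clstn1 (3.27), 305 to 323 of 350 in Atp6ap2 (2.82), 59 to 77 of 155 in Atp6v0c (2.82) and 96 to 114 of 116 in Vamp2 (3.36). In Vamp2 the stretch is the anchor at the very end of the protein, whereas Serinc1 held 10 separate windows along its length. The genes lie at chr10:57515774-57532530 (minus strand) for Serinc1, chr15:8634124-8710764 (minus) for Slc1a3, chr4:149586468-149648899 (plus) for Clstn1, chrX:12587801-12617049 (plus) for Atp6ap2, chr17:24163866-24169702 (minus) for Atp6v0c and chr11:69088490-69092384 (plus) for Vamp2.

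How steady the genes are on chromatin depends on the scale. Reads were counted over each gene from end to end, and intron and exon reads therefore enter 1 sum. Over the 12280, 11793 and 11607 genes at 1 CPM or more in both cell types on chromatin, in nucleoplasm and in cytoplasm, the median mCtx-to-mESC ratio of CPM was 0.532, 0.992 and 1.11, so a gene with an unchanged chromatin CPM stood above most genes. The median chromatin ratio of the 248 genes was 1.25 in CPM. In the authors' transcript abundances (TPM, scaled by transcript length and library) it was 2.47, with 84 of 244 genes between 0.5 and 2 and 159 above 2, and the median cytoplasm ratio was 5.89 against 11.6 in CPM. The all-gene medians differ between the measures as well. Over genes at 1 TPM or more in both cell types, the median TPM ratio was 1.18 on chromatin (16589 genes) and 0.563 in cytoplasm (9042 genes). The same rule found 85 genes, 78 of them among the 248, with library sizes corrected by a trimmed mean of ratios (TMM), and 12 genes, 8 of them shared, with TPM. "Steady" therefore means steady as a share of the chromatin reads. Over all 18249 genes tested, edgeR called 33.0% higher and 47.4% lower in mCtx than in mESC on chromatin, and 40.1% higher and 41.6% lower in cytoplasm; since the rule used both contrasts, nothing is read from calls of the members there.

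The limits cut through a continuous range. Just inside the cytoplasm limit were Gm3411 (ratio 8.02), Tex264 (8.08), Tmem9 (8.09), Rnf215 (8.09) and Opn3 (8.10), and just outside were Scap and Rhob (7.98 each), Ctsf and Rab12 (7.96 each) and Ttl (7.95). A limit of 4 would take 780 genes and a limit of 16 would leave 56. Of the 248, GENCODE vM21 names 243 and lists 225 as protein coding. All 248 passed the low-count filter that left 18249 genes for testing. With overlapping genes the counts are uncertain, since the overlap rule of the counting is not given in the sources used here. Overlap with another gene on the same strand covered 50% or more of the span in 14 members, and overlap on the opposite strand in 9. Cers1, a ceramide synthase, and ENSMUSG00000055694 had identical counts in every library, so their reads are 1 measurement entered under separate IDs.

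**Figure D1:**
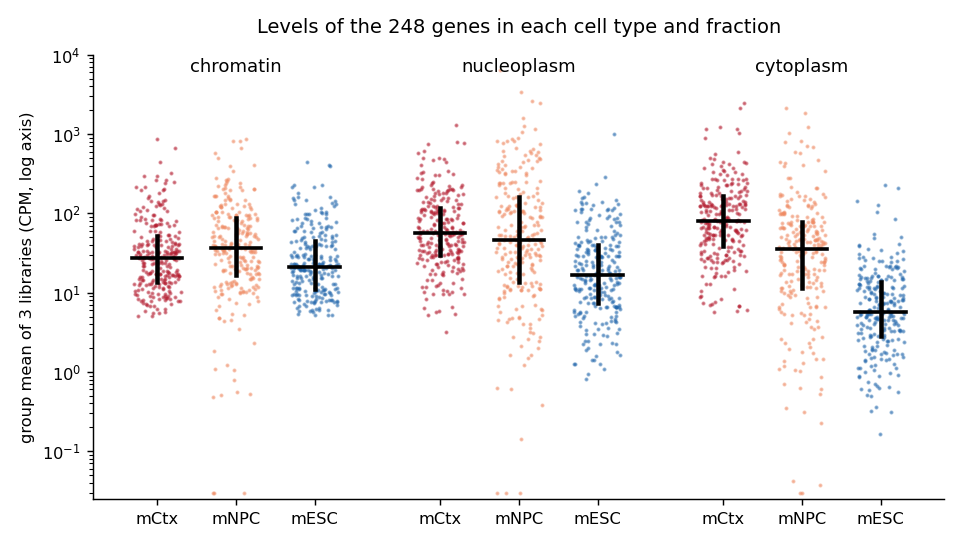
Mean CPM (log axis) of each of the 248 genes on chromatin, nucleoplasm and cytoplasm, with mCtx, mNPC and mESC side by side; each dot is the mean of 3 libraries, horizontal bars are medians and vertical bars span the quartiles. Genes too low for the axis, all in mNPC, are drawn at its foot. The median climbs across the fractions in mCtx to 80.1 CPM, stays between 35.8 and 46.7 CPM in mNPC and declines in mESC to 5.78 CPM.

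The levels of the group ran in opposite directions across the fractions of the outer cell types. In mCtx the median of the group means was 27.5 CPM on chromatin, 55.7 CPM in nucleoplasm and 80.1 CPM in cytoplasm. In mNPC it was 36.8, 46.7 and 35.8 CPM in the same fractions, and in mESC 21.3, 16.8 and 5.78 CPM. Replicates stayed close together. The median in cytoplasm was 80.3, 81.5 and 79.4 CPM in the mCtx libraries, 36.8, 33.0 and 35.3 CPM in mNPC and 6.55, 6.03 and 5.33 CPM in mESC. The other steady genes had medians of 49.7, 43.2 and 29.9 CPM in the cytoplasm of mCtx, mNPC and mESC. As a ratio, the distance between the sets was thus widest in the cytoplasm of mESC, where the 248 genes were the lower ones. The rule separated the sets by the cytoplasm ratio, so this distance and the opposite directions across fractions follow in part from it. mNPC lay in between for most members. The median ratio of cytoplasm CPM was 4.85 for mNPC over mESC, with 202 of 248 genes at 2 or more, and 2.42 for mCtx over mNPC, with 152 at 2 or more. Of the 3320 other steady genes, 1067 and 713 reached 2 in these ratios. Each ratio shares cytoplasm libraries with the rule, which asked for low mESC and high mCtx levels. The place of mNPC in between is thus partly built in. In bulk samples, fewer cells that hold an RNA and less of it per cell cannot be told apart.

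**Figure D2:**
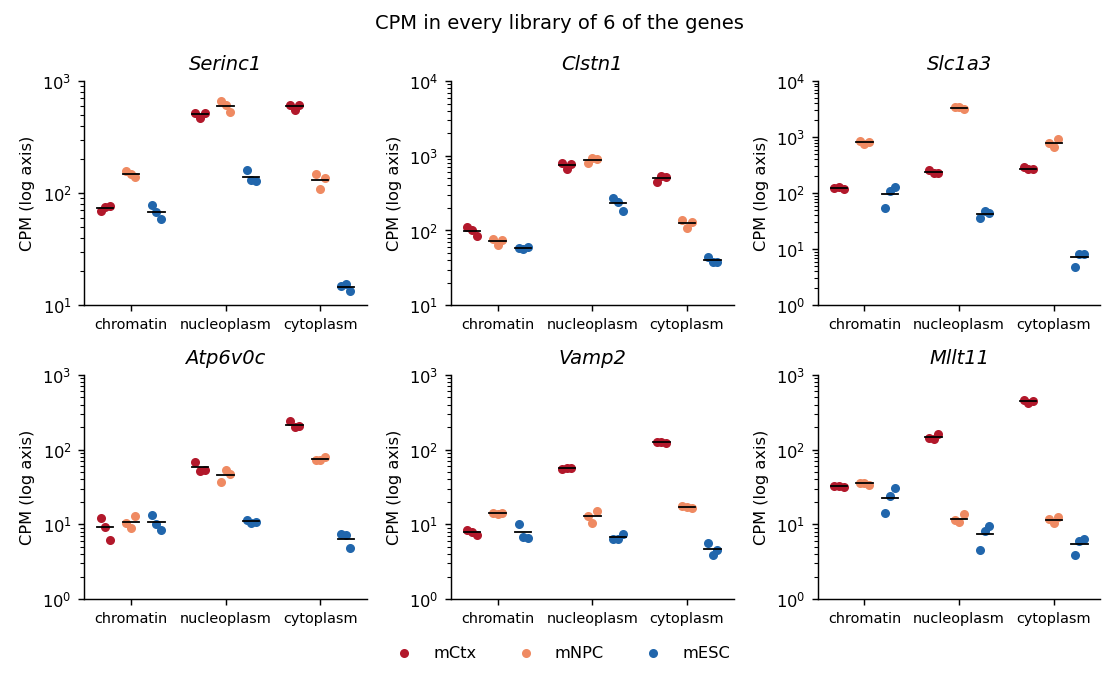
CPM (log axis) in every library for Serinc1, Clstn1, Slc1a3, Atp6v0c, Vamp2 and Mllt11, by fraction, with mCtx, mNPC and mESC side by side; each point is 1 library and each bar the mean of 3. In each of these genes the cytoplasm points of mCtx lie above all cytoplasm points of mESC, as the rule requires, and those of mNPC lie above mCtx only for Slc1a3.

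Serinc1, a serine incorporator with many membrane passes, shows the pattern most fully. On chromatin it had 69.4, 75.6 and 76.8 CPM in mCtx, 157, 148 and 140 CPM in mNPC and 78.6, 67.7 and 58.3 CPM in mESC. In nucleoplasm it had 523, 469 and 520 CPM in mCtx, 664, 615 and 533 CPM in mNPC and 161, 130 and 127 CPM in mESC. Its mESC RNA was thus already lower in nucleoplasm, with no overlap between the groups. In the edgeR quasi-likelihood test with Benjamini-Hochberg adjustment over all genes, used for every test below, the nucleoplasm difference had a log2 fold change of 1.84 (SE 0.142, adjusted p = 5.11e-12) for mCtx over mESC and 2.18 (adjusted p = 3.33e-13) for mNPC over mESC. In cytoplasm Serinc1 had 611, 556 and 615 CPM in mCtx, 148, 109 and 135 CPM in mNPC and 15, 15.4 and 13.5 CPM in mESC, a ratio of 40.3 for mCtx over mESC. Nucleoplasm was therefore close to cytoplasm in mCtx, while in mNPC the cytoplasm was lower than nucleoplasm, with a log2 fold change of -2.47 (adjusted p = 1.62e-13).

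In libraries outside the rule, the nucleoplasm shows whether the difference between neurons and stem cells was also present in that fraction. The fraction held mitochondrial RNA as well, so it does not stand for the nucleus alone. In mCtx against mESC, 222 of the 248 genes were higher and 2 lower at an adjusted p under 0.05, where 38.8% of all genes tested were higher and 43.4% lower. The median log2 fold change was 1.71 for the 248 genes, 0.74 for the other steady genes (2305 of 3320 higher, 332 lower) and -0.15 for all genes. Without the mESC libraries numbered 1, left out together by a choice made after the data were seen, 228 members were higher and 5 lower. On the authors' TPM, limma called 219 higher and 2 lower. All genes of the mitochondrial genome together made up 2.12% ± 0.157 of reads in mCtx nucleoplasm and 29.1% ± 1.03 in mESC nucleoplasm (SD, n = 3 each), reads that count in the totals behind CPM, and their part in the result was not tested. The median ratio of the members in nucleoplasm was 3.29 in CPM, between the 1.25 of chromatin and the 11.6 of cytoplasm.

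**Figure D3:**
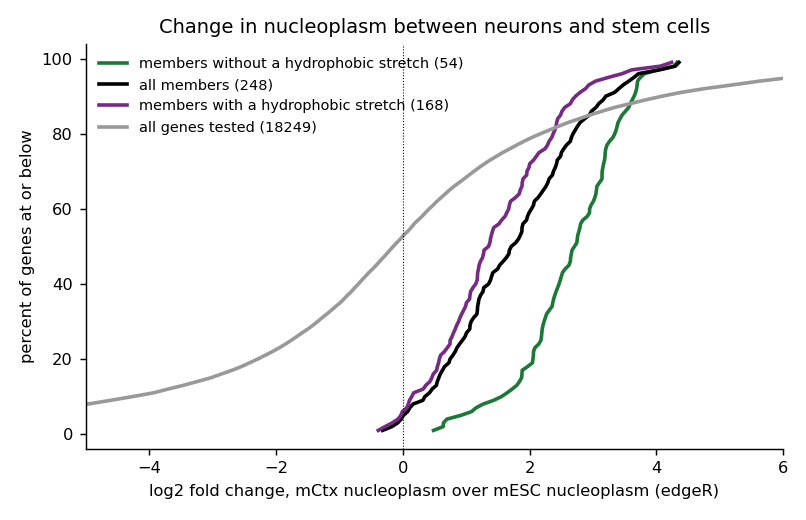
Cumulative share of genes (percent, vertical axis) by log2 fold change in nucleoplasm of mCtx over mESC (horizontal axis, edgeR), for members with and without a hydrophobic stretch, all members and all genes tested. The curve of members without a stretch lies farthest right, with a median of 2.71, that of members with one has a median of 1.35, and that of all genes -0.15. The other steady genes, not drawn, had medians of 0.847 without a stretch and 0.485 with one.

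The nucleoplasm step was not equal over the group. Mllt11 (a protein first found as a fusion partner in leukaemia) had 145, 140 and 164 CPM in mCtx nucleoplasm, 11.3, 10.7 and 13.7 CPM in mNPC and 4.48, 8.12 and 9.58 CPM in mESC. Its log2 fold change for mCtx over mESC was 4.34 (SE 0.233, adjusted p = 2.67e-15), and its cytoplasm ratio of 80.5 was the highest of the group. In cytoplasm it had 461, 426 and 450 CPM in mCtx, 11.6, 10.3 and 12.4 CPM in mNPC and 3.92, 6 and 6.38 CPM in mESC, so mNPC stayed close to mESC there. Zfp651, a zinc finger protein (4.31, SE 0.261), and the unannotated transcript gene 2700081O15Rik (4.38, SE 0.177) had fold changes of the same size. A930015D03Rik and ENSMUSG00000092254 also stood among the 5 largest (4.37 for the first), but 99.9% of the first overlaps another gene on its strand and its TPM gave 0.18, short of the threshold.

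At the other end, the 2 members lower in mCtx nucleoplasm were Tmed10 and Lrpap1. Tmed10, a cargo receptor of the p24 family that cycles between endoplasmic reticulum and Golgi, had 49.8, 46.1 and 49.8 CPM in mCtx nucleoplasm and 55.2, 85.7 and 63.2 CPM in mESC (log2 fold change -0.49, SE 0.135, adjusted p = 0.0018). In cytoplasm the order turned round, with 130, 108 and 122 CPM in mCtx and 12.1, 14.4 and 11.5 CPM in mESC. Lrpap1, a chaperone of lipoprotein receptors, had 75.1, 71.3 and 78.6 CPM in mCtx nucleoplasm and 147, 100 and 87.0 CPM in mESC (-0.58, SE 0.173, adjusted p = 0.00351), a call that was lost without the first mESC nucleoplasm library (-0.32) and on TPM (-0.11). Scd2, a stearoyl-CoA desaturase, had a fold change of -0.33 (adjusted p = 0.245), F2r, the thrombin receptor, -0.30 (adjusted p = 0.0739), Mpzl1 -0.24 (adjusted p = 0.127) and Atp6ap2, an accessory subunit of the vacuolar ATPase, -0.07 (adjusted p = 0.66). None of these 4 passed the test, and on TPM each was above 0.

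What the members share beyond the rule is the kind of protein they encode. Of the 222 members with a coding sequence, 168 (75.7%) held a hydrophobic stretch, against 1000 of 3254 (30.7%) of the other steady genes. With a stricter limit of 2.0 the shares were 59.9% and 16.6%, and 45.9% of members against 14.0% of the other steady genes held 2 or more separate stretches. The search was chosen after the leading genes had been seen, so the shares are a description. Members were shorter genes, with a median span of 24740 bases against 36850, 7 exons against 10 and a protein of 430 residues against 542. The transcripts were of like length, with medians of 3971 and 4044 bases.

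**Figure D4:**
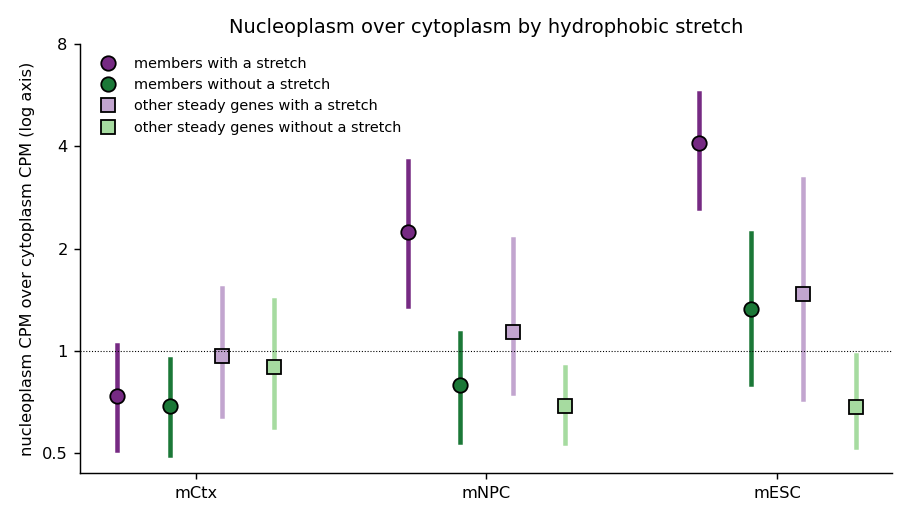
Ratio of nucleoplasm to cytoplasm CPM (log axis) for members and other steady genes, with and without a hydrophobic stretch, in mCtx, mNPC and mESC; symbols are medians and bars span the quartiles. Members with a stretch have medians of 0.738 in mCtx, 2.24 in mNPC and 4.10 in mESC, and members without one 0.691, 0.795 and 1.33.

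Members with and without the stretch differed in where the RNA lay in mNPC and mESC, and were close to each other in mCtx. In nucleoplasm over cytoplasm, members with a stretch had a median ratio of 0.738 in mCtx, 2.24 in mNPC and 4.10 in mESC. Members without one had 0.691, 0.795 and 1.33. Among the other steady genes the ratios were 0.967, 1.14 and 1.47 with a stretch and 0.900, 0.687 and 0.684 without. The neurons were the cell type in which members of both kinds lay on the cytoplasm side. Over all members the median ratio was 0.768, 0.699 and 0.743 in the mCtx replicates, 1.6, 1.99 and 1.70 in mNPC and 3.34, 3.43 and 3.15 in mESC. The mCtx and mESC cytoplasm values in these ratios were used by the rule, which asks for high values in mCtx and low ones in mESC, so the test belongs to mNPC.

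Within mNPC, 28 of the 248 genes were higher and 161 lower in cytoplasm than in nucleoplasm, where 27.5% of all genes were higher and 22.6% lower. The median log2 fold change was -1.14 for the members and 0.15 for the other steady genes (1276 of 3320 higher, 871 lower). Of the 168 members with a stretch, 8 were higher and 134 lower (median -1.44), and of the 54 without, 18 were higher and 11 lower (median 0.11). The other steady genes split along the same line, with 196 higher and 533 lower of 1000 with a stretch (median -0.44) and 1062 higher and 311 lower of 2254 without (median 0.30). On TPM, limma called 12 higher and 98 lower of 167 members with a stretch, and 23 higher and 4 lower of 54 without. With total-count scaling, which shifts the all-gene median by 0.23, the counts were 12 and 129 with a stretch and 24 and 9 without.

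RNA of the mitochondrion differed between cell types and fractions. All genes of the mitochondrial genome made up 11.1% ± 4.14 of reads in mNPC nucleoplasm, against the 2.12% of mCtx and 29.1% of mESC given above, and in cytoplasm 1.19% ± 0.368 in mCtx, 0.164% ± 0.0419 in mNPC and 0.288% ± 0.0932 in mESC. The 13 mitochondrial messages made up 1.45% ± 0.078 of mCtx nucleoplasm reads, 5.72% ± 1.27 of mNPC and 1.85% ± 0.0168 of mESC (SD, n = 3 each). In cytoplasm they made up 0.646% ± 0.0566 in mCtx, 0.123% ± 0.0288 in mNPC and 0.0137% ± 0.00431 in mESC. A messenger that is made and kept inside an organelle of the cytoplasm was thus more frequent in nucleoplasm than in cytoplasm in all 3 cell types, by the largest factor in mESC. The part of mitochondrial RNA in the nucleoplasm-to-cytoplasm ratios and in the fold changes between cell types was not tested.

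The other contrasts inside mNPC placed the members by fraction. In nucleoplasm over chromatin, 153 members were higher and 52 lower (background 32.5% higher and 33.5% lower, median log2 fold change 1.04 against 0.00 for all genes, or -0.39 for all genes with total-count scaling). With a stretch 131 of 168 were higher and 15 lower, and without one 14 of 54 were higher and 22 lower. The other steady genes also split, with 489 higher and 334 lower of 1000 with a stretch, and 579 higher and 1225 lower of 2254 without. In cytoplasm over chromatin the group did not stand apart, with 94 higher and 108 lower (background 32.5% and 37.0%, median -0.02). Among the extremes there were Tmsb4x (5.17), which encodes the actin-binding thymosin beta 4, Atxn7l3b (3.02), Atp6v0c (2.98) and Pgrmc1 (2.96) above, and Gpr21 (-5.23), Gm12905 (-4.70), Gm3411 (-4.34) and Gm21781 (-4.18) below. Gpr21, an orphan receptor, is covered over its whole span by other genes on both strands, so its reads cannot be assigned.

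In the mNPC nucleoplasm, 192 members were higher and 30 lower than in mESC (background 35.7% higher and 41.5% lower), with a median log2 fold change of 1.51 against -0.14 for all genes. This comparison shares its mESC libraries with that of mCtx over mESC, and the one of mCtx over mNPC shares libraries with both. On log2(TPM + 1), limma called only 83 members higher and 66 lower, where 2058 of all genes were higher and 11454 lower. The number of members called higher in mNPC nucleoplasm thus depends on the measure, and so do the calls over all genes. On both measures the calls leaned further toward higher in the members than over all genes. In mCtx over mNPC nucleoplasm, 109 members were higher and 93 lower (background 36.9% and 34.9%, median 0.08). On log2(TPM + 1) 191 members were higher and 25 lower, where 17013 of all genes were higher and 1526 lower. In edgeR the members with a stretch had 54 higher and 81 lower, and those without one 38 higher and 8 lower. The other steady genes had 415 higher and 408 lower of 1000 with a stretch, and 1302 higher and 459 lower of 2254 without.

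**Figure D5:**
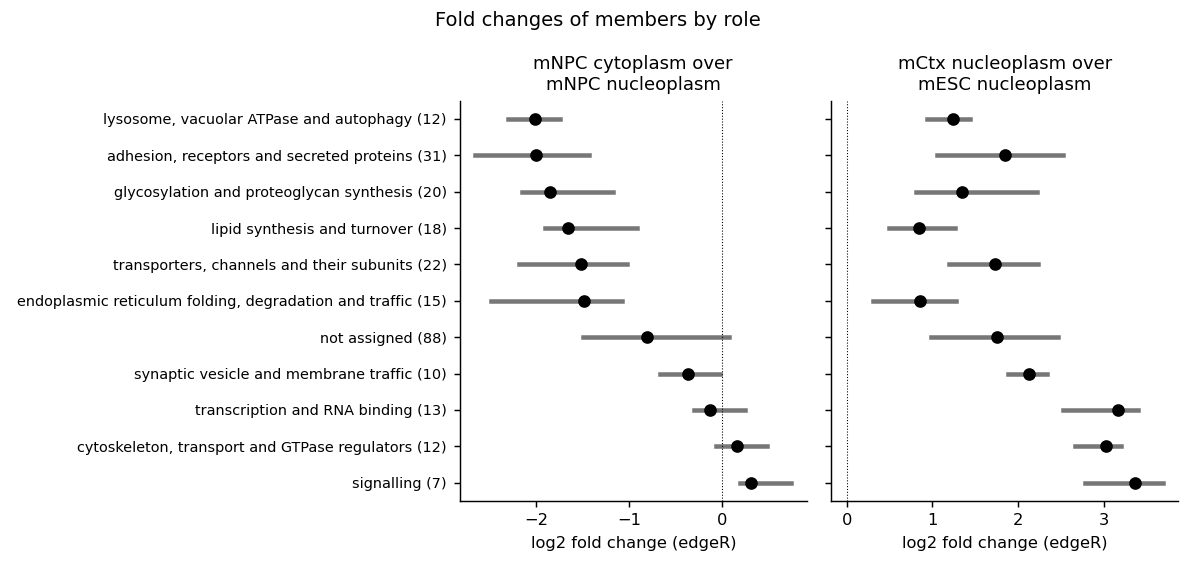
Log2 fold change (horizontal axes, edgeR) of the members by role (rows, number of genes in brackets; the dot is the median and the bar spans the quartiles), for mNPC cytoplasm over nucleoplasm (left) and nucleoplasm of mCtx over mESC (right). Signalling, transcription and cytoskeleton genes lie near 0 on the left and farthest right on the right, and the lysosomal class lies farthest left on the left, at -2.02.

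To order the members by what their proteins do, 160 were placed in 10 role classes from general knowledge of the genes and 88 were left unassigned. The classes were drawn up after the values were known, and counts below are for nucleoplasm of mCtx over mESC first and for cytoplasm over nucleoplasm of mNPC second, with the backgrounds given above.

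The lysosome, vacuolar ATPase and autophagy class held 12 genes, 11 with a hydrophobic stretch. They include Atp6v0c, Atp6ap1 and Atp6ap2 of the proton pump that acidifies lysosomes and synaptic vesicles, the hydrolases Ctsb and Acp2, and Psap, the precursor of the saposins that help to degrade sphingolipids. In the first comparison 10 were higher and none lower (median 1.24), and in the second 1 was higher and 10 lower (median -2.02). Atp6v0c, the membrane ring subunit, had 241, 201 and 204 CPM in mCtx cytoplasm, 71.5, 71.5 and 79.3 CPM in mNPC and 7.35, 7.15 and 4.84 CPM in mESC. On chromatin it had 12.1, 9.27 and 6.24 CPM in mCtx, 10.3, 8.80 and 12.9 CPM in mNPC and 13.3, 10.2 and 8.45 CPM in mESC, ranges that overlap throughout. It was higher in mCtx than in mESC nucleoplasm, at 68.5, 52.1 and 53.4 CPM against 11.5, 10.4 and 10.8 CPM (log2 fold change 2.40, SE 0.188, adjusted p = 7.37e-12). Unlike its class it was higher in mNPC cytoplasm than nucleoplasm (0.46, adjusted p = 0.0303).

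Psap behaved otherwise. It had 639, 559 and 639 CPM in mCtx nucleoplasm, 2400, 2844 and 2499 CPM in mNPC and 413, 258 and 204 CPM in mESC, so mNPC stood above both others. The log2 fold change was 1.06 (SE 0.208, adjusted p = 4.91e-05) for mCtx over mESC and -2.14 (adjusted p = 1.2e-09) for mCtx over mNPC. In mNPC it had 534, 392 and 478 CPM in cytoplasm, below its nucleoplasm by a log2 fold change of -2.72 (adjusted p = 7.03e-11). Itm2b and Itm2c, membrane proteins of the BRICHOS family, were also highest in mNPC nucleoplasm, where Itm2c had 1309, 1304 and 1182 CPM, against 44.2, 35.8 and 39.4 CPM in mCtx and 29.4, 31.0 and 25.5 CPM in mESC.

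The endoplasmic reticulum class (15 genes, all with a stretch) holds parts of folding and disposal of proteins, such as Sel1l, Os9 and March6 of the degradation route, Pdia3, a disulfide isomerase, Tusc3 of the oligosaccharyl transferase and Saraf, a regulator of store-operated calcium entry. In the first comparison 11 were higher and 2, Tmed10 and Lrpap1, lower (median 0.86). In the second none was higher and 12 were lower (median -1.48). Its median nucleoplasm-to-cytoplasm ratio was 0.741 in mCtx, 2.34 in mNPC and 5.67 in mESC.

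Enzymes and carriers of glycosylation and proteoglycan synthesis made up 20 genes, all with a stretch. They cover N-glycan trimming and branching (Man1a2, Man2a2, Mgat5, Mgat5b), linkage and chain building of glycosaminoglycans (B4galt7, Extl2, Chpf, Chpf2, Hs6st2, Ndst1), the Notch-modifying Lfng, and the nucleotide sugar carriers Slc35a2 and Slc35a5. In the first comparison 19 were higher and none lower (median 1.34), and in the second 1 was higher and 19 lower (median -1.85). Their median cytoplasm level was 65.2 CPM in mCtx, 27.9 CPM in mNPC and 4.87 CPM in mESC.

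Lipid synthesis and turnover gave 18 genes, 16 of 17 coding ones with a stretch, among them Serinc1 and Serinc3, the cholesterol synthesis enzymes Cyp51 and Hsd17b7, the desaturases Scd2 and Fads2, and the elongase Elovl4. In the first comparison 14 were higher and none lower (median 0.84), and in the second none was higher and 16 were lower (median -1.66). Scd2 was among the most abundant, with 1140, 1326 and 1210 CPM in mCtx cytoplasm, 1908, 1689 and 1979 CPM in mNPC and 90.3, 166 and 177 CPM in mESC. Its nucleoplasm held 841, 763 and 801 CPM in mCtx, 6315, 7212 and 5956 CPM in mNPC and 574, 1157 and 1284 CPM in mESC, where the first mESC library was low and the groups of mCtx and mESC overlapped.

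Transporters and channels (22 genes, 19 with a stretch) had 21 higher and none lower in the first comparison (median 1.73), and 2 higher and 18 lower in the second (median -1.52). Slc1a3 is the glutamate transporter of astrocytes and radial glia, and was also 1 of 6 astrocyte markers used to check the cells. It had 287, 268 and 266 CPM in mCtx cytoplasm, 796, 660 and 908 CPM in mNPC and 4.78, 8.25 and 8.32 CPM in mESC. Its nucleoplasm level was 262, 226 and 230 CPM in mCtx, 3463, 3503 and 3107 CPM in mNPC and 36.3, 48.1 and 43.7 CPM in mESC (log2 fold change 2.48, SE 0.223, adjusted p = 1.13e-10 for mCtx over mESC). It was thus highest in mNPC, and the astrocyte markers summed to 298 to 320 CPM over the mCtx cytoplasm libraries, most of it Slc1a3, with 4 of the 6 at 1 CPM or more. The part of glial cells in the mCtx level was not tested. Hcn3, a pacemaker channel, had 60.0, 63.6 and 63.9 CPM in mCtx cytoplasm, 2.82, 2.77 and 2.33 CPM in mNPC and 5.10, 3.58 and 2.96 CPM in mESC, and rose in mCtx over mESC nucleoplasm by 2.42 (SE 0.178, adjusted p = 1.95e-12).

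Adhesion molecules, receptors and secreted proteins were the largest class with 31 genes, 28 of 30 coding ones with a stretch. In the first comparison 27 were higher and none lower (median 1.85), and in the second 1 was higher and 29 lower (median -2.0). Clstn1, a calsyntenin that links vesicles to kinesin, had 451, 531 and 518 CPM in mCtx cytoplasm, 140, 108 and 130 CPM in mNPC and 44.7, 37.6 and 38.2 CPM in mESC. The nucleoplasm held 804, 663 and 765 CPM in mCtx, 811, 934 and 893 CPM in mNPC and 274, 239 and 182 CPM in mESC, so mCtx and mNPC overlapped there and both stood above mESC. For mCtx over mESC nucleoplasm its log2 fold change was 1.68 (SE 0.133, adjusted p = 9.77e-12), and for cytoplasm over nucleoplasm in mNPC it was -3.05 (adjusted p = 1.95e-15). For Klc1, the kinesin light chain that calsyntenin binds, the same mNPC contrast gave 0.23 (adjusted p = 0.158), and the protein held no stretch.

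Within the same class, Serpini1 (neuroserpin, a secreted inhibitor of tissue plasminogen activator) had 201, 176 and 209 CPM in mCtx nucleoplasm, 12.1, 11.8 and 7.96 CPM in mNPC and 18.2, 19.7 and 15.5 CPM in mESC. Its log2 fold change for mCtx over mESC was 3.45 (SE 0.18, adjusted p = 1.56e-15). Plxna1, a semaphorin receptor of axon guidance, had 524, 438 and 467 CPM in mCtx nucleoplasm, 174, 227 and 219 CPM in mNPC and 212, 186 and 144 CPM in mESC (1.39 for mCtx over mESC, SE 0.148, adjusted p = 2.82e-09). Cd24a, a glycolipid-anchored surface protein, had 1091, 1025 and 963 CPM in mCtx cytoplasm, 101, 106 and 94.9 CPM in mNPC and 36.5, 36.6 and 30.8 CPM in mESC. In cytoplasm, Cd24a of mCtx thus stood far above both dividing cell types, which did not overlap each other.

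Synaptic vesicle and membrane traffic genes (10, with a stretch in 7) rose in nucleoplasm of mCtx over mESC in 10 of 10 (median 2.13), and in mNPC 1 was higher and 4 lower in cytoplasm than nucleoplasm (median -0.36). Vamp2, the vesicle SNARE of transmitter release, had 126, 127 and 121 CPM in mCtx cytoplasm, 17.4, 17.1 and 16.3 CPM in mNPC and 5.69, 3.92 and 4.56 CPM in mESC. On chromatin it had 8.42, 7.80 and 7.08 CPM in mCtx, 14.3, 13.6 and 14.0 CPM in mNPC and 10.2, 6.85 and 6.54 CPM in mESC. In nucleoplasm it had 54.7, 56.0 and 56.9 CPM in mCtx, 12.9, 10.4 and 15 CPM in mNPC and 6.44, 6.30 and 7.31 CPM in mESC, without overlap between mCtx and either other cell type.

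For mCtx over mESC nucleoplasm Vamp2 had a log2 fold change of 3.05 (SE 0.146, adjusted p = 2.41e-16), and in mNPC its cytoplasm and nucleoplasm differed by 0.17 (adjusted p = 0.347), in contrast to Serinc1 and Clstn1. Vamp2 holds an intron reported as regulated by the splicing repressor PTBP1. Ptbp1 itself fell in mCtx over mESC nucleoplasm by 3.00 on the log2 scale (SE 0.18, adjusted p = 2.32e-14). Napb, the neuronal attachment protein for the SNARE-splitting ATPase, had 102, 94.4 and 105 CPM in mCtx nucleoplasm, 9, 11.3 and 9.32 CPM in mNPC and 8.81, 7.36 and 9.21 CPM in mESC (3.56, SE 0.148, adjusted p = 1.28e-17). Syngr1, a vesicle membrane protein, was lower in mNPC than in mESC (-1.38, adjusted p = 6.4e-07), with 114, 99.9 and 107 CPM in mCtx nucleoplasm, 8.70, 10.7 and 12.7 CPM in mNPC and 33.4, 26.2 and 26.5 CPM in mESC (1.89 for mCtx over mESC, SE 0.187, adjusted p = 7.81e-10).

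The classes with few hydrophobic stretches had larger median fold changes in nucleoplasm of mCtx over mESC and medians nearer 0 between the soluble fractions of mNPC. Cytoskeleton genes (12, 3 with a stretch) had 11 higher and none lower in the first comparison (median 3.03), and 4 higher and 1 lower in the second (median 0.16). Signalling genes (7, 1 with a stretch) had 7 higher in the first (median 3.37), and 4 higher and none lower in the second (median 0.31). Transcription and RNA-binding genes (13, none with a stretch) had 13 higher in the first (median 3.16), and 2 higher and 1 lower in the second (median -0.13). The median nucleoplasm-to-cytoplasm ratio of the signalling class was 0.571 in mCtx, 0.678 in mNPC and 0.802 in mESC, and that of the lysosomal class 0.748, 3.41 and 6.57.

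Stmn2, a microtubule regulator of growing axons, was also 1 of 8 neuron markers. It had 1220, 1134 and 1161 CPM in mCtx cytoplasm, 0, 0.0553 and 0.0726 CPM in mNPC and 165, 126 and 89.7 CPM in mESC. On chromatin it had 271, 263 and 250 CPM in mCtx, no read in mNPC and 195, 145 and 88.0 CPM in mESC. In nucleoplasm it had 471, 481 and 528 CPM in mCtx and 98.0, 80.6 and 56.1 CPM in mESC (2.65, SE 0.234, adjusted p = 2.07e-10). Stem cells therefore held a marker of neurons that the progenitor line lacked, and the neuron markers summed to 306 to 326 CPM in mESC cytoplasm, 4 of 8 of them at 1 CPM or more. For Stmn2, the mESC chromatin libraries differed from each other by more than those of mCtx.

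Tmsb4x and Lars2 differed widely between libraries of 1 group. Tmsb4x had 2091, 2236 and 2052 CPM in mCtx cytoplasm, 2174, 2142 and 2140 CPM in mNPC and 63.6, 208 and 354 CPM in mESC. Its nucleoplasm level was 208, 208 and 230 CPM in mCtx and 40.3, 128 and 242 CPM in mESC, so the groups overlapped (0.65, SE 0.437, adjusted p = 0.172, and 1.38 and past the threshold without the third mESC nucleoplasm library). Lars2, the mitochondrial leucyl-tRNA synthetase, had 474, 18.6 and 3023 CPM in mCtx cytoplasm and 120, 39.6 and 152 CPM in mESC. Its cytoplasm ratio was 2.37 without the third mCtx library, so it is a member through that library, and its nucleoplasm fold change was 0.11 (adjusted p = 0.899).

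Among the genes of transcription and RNA, Rbmx, an RNA-binding protein on the X chromosome, had 106, 112 and 106 CPM in mCtx cytoplasm, 74.8, 68.6 and 62.9 CPM in mNPC and 2.31, 3.17 and 2.68 CPM in mESC. The nucleoplasm held 106, 102 and 101 CPM in mCtx, 64.1, 62.2 and 75.2 CPM in mNPC and 12.2, 12.1 and 10.0 CPM in mESC (3.16, SE 0.109, adjusted p = 2.53e-19). On mNPC chromatin it stood at 266, 269 and 274 CPM, the highest of any group. Cux2, a homeodomain factor of upper-layer cortical neurons, rose in mCtx over mESC nucleoplasm by 3.33 (SE 0.231, adjusted p = 6.02e-13), and Mef2a, an activity-regulated transcription factor, by 2.53 (SE 0.187, adjusted p = 2.33e-12). Ttc3, a ubiquitin ligase left unassigned, was among the most abundant in nucleoplasm at 1329, 1243 and 1385 CPM in mCtx, 499, 526 and 542 CPM in mNPC and 155, 117 and 115 CPM in mESC (3.34, SE 0.144, adjusted p = 2.57e-17).

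Members were counted in 14 lists of neuronal and related genes. Of the 3568 steady genes 6.95% were members, so a list with a few steady genes would hold about 1 or none at that share, and its count is a description. Of 39 synaptic vesicle and release genes, 22 reached 5 CPM on chromatin in both cell types, 16 of those had a chromatin ratio above 2, 6 met the chromatin limits and the cytoplasm level, and 3 of those were members (Napb, Syngr1 and Vamp2). Of 18 postsynaptic genes 4 were steady and none a member, and of 28 neural RNA-binding proteins 8 were steady and none a member. Of 34 signalling genes 11 were steady and none a member. The endolysosome list gave the most members, 4 of 8 steady genes among 19 (Psap, Itm2b, Itm2c and Atp6ap2). Single members came from the lists of neuronal cytoskeleton (Stmn2), transport motors (Klc1), channels (Hcn3), adhesion and guidance (Plxna1) and energy metabolism (Slc25a27, a mitochondrial carrier), and 2 from neuronal transcription factors (Cux2 and Mef2a). In nucleoplasm of mCtx over mESC, 37 of the 39 synaptic vesicle genes were higher and 2 lower (median 4.67), and 13 of the 19 endolysosome genes were higher and 4 lower (median 1.06).

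The labelled cell types fitted their defining markers in cytoplasm. In cytoplasm, 8 stem cell markers summed to 1.96 to 3.39 CPM in mCtx, 7.58 to 9.48 CPM in mNPC and 3570 to 4150 CPM in mESC. The 8 neuron markers summed to 6970 to 7480 CPM in mCtx, 617 to 820 CPM in mNPC and 306 to 326 CPM in mESC, and the 8 progenitor markers to 853 to 1030, 5910 to 6270 and 121 to 130 CPM. On chromatin mNPC was less distinct from mCtx by the neuron markers, which summed to 4730 to 5040 CPM in mCtx, 2130 to 2450 CPM in mNPC and 236 to 308 CPM in mESC. Markers of other cells in mCtx cytoplasm summed to 42.4 to 52.2 CPM over 7 microglia markers, 18.8 to 24.1 CPM over 6 oligodendrocyte lineage markers, 5.65 to 7.69 CPM over 6 endothelial and mural markers and 7.13 to 7.42 CPM over 6 fibroblast markers. The 6 astrocyte markers summed to 298 to 320 CPM in mCtx cytoplasm, 820 to 1060 CPM in mNPC and 17.9 to 34.6 CPM in mESC, and in nucleoplasm to 260 to 296, 3270 to 3700 and 45.3 to 53.8 CPM. In nucleoplasm the oligodendrocyte lineage markers summed to 30.1 to 31.9 CPM in mCtx, 1470 to 1950 CPM in mNPC, where 5 of 6 reached 1 CPM, and 22.9 to 40.5 CPM in mESC. In cytoplasm they summed to 116 to 168 CPM in mNPC and 5.36 to 10.2 CPM in mESC. Endothelial and mural markers in nucleoplasm summed to 15.5 to 20.9 CPM in mCtx, 5.85 to 6.8 CPM in mNPC and 153 to 378 CPM in mESC, where 5 of 6 reached 1 CPM. The progenitor, astrocyte, oligodendrocyte and endothelial markers thus differed between the cell types compared and, in mNPC, between nucleoplasm and cytoplasm, and their part in the members' values was not tested.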

How the data were processed

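Chromatin, nucleoplasm and cytoplasm RNA of mCtx, mNPC and mESC was sequenced as stranded 100 bp read pairs, in triplicate. STAR, kallisto and featureCounts are given without versions or roles in the submitters' processing notes, with mm10 as the build. The authors deposited whole-number counts for 37332 genes; the chromatin columns, listed under the unit expected count, also hold whole-number deposited counts. The deposited gene length equals the span for all 37332 genes. TPM for 53379 genes were deposited too. GENCODE vM21 named 35449 genes by ID.

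CPM used total counts. All 27 libraries were fitted in edgeR 4.0.16 (R 4.3.3; quasi-likelihood, TMM, default low-count filter, 1 coefficient per group, Benjamini-Hochberg adjustment at 0.05), and the script was tested on simulated data. Alternatives were total-count and median-ratio scaling, DESeq2 1.42.0, no filter, only the compared groups, limma 3.58.1 on log2(TPM + 1) or log2(TPM + 0.1), the replicate block and leaving out each library. Members, lists and roles were chosen with earlier results of these data known. Genes were named by rule: the extremes of cytoplasm ratio, of mCtx cytoplasm level and of 2 fold changes, list members, genes at the limit and non-coding members (2 genes that met this rule are not reported here); role examples without values were chosen after the values were seen. Figures were drawn with matplotlib 3.10.9.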

Additional observations from a re-analysis of the deposited data

How the results depend on the processing

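For the genes singled out in mCtx over mESC nucleoplasm or in mNPC cytoplasm over chromatin, 734 of the alternative values kept their direction and side of the threshold, 11 fell short of it, 12 passed it newly and 14 changed sign. These sign changes were in 4 genes that did not pass the test in mCtx over mESC nucleoplasm. Outside that count, genes named at the cytoplasm limit also spanned 0 there, with Tmem9 at -0.099 to 0.321 and Gm3411, higher by 2.18 in edgeR, at -0.606 to 2.777, below 0 on TPM. On log2(TPM + 1), log2(TPM + 0.1) and log2(TPM + 1) without a filter, Scd2 (-0.33) had 0.15, 0.16 and 0.15, Atp6ap2 (-0.07) had 0.32, 0.33 and 0.32, F2r (-0.30) had 0.085, 0.095 and 0.085, and Mpzl1 (-0.24) had 0.20, 0.22 and 0.20. Atp6ap2 ran from -0.205 to 0.213 over the fits without 1 library and had 0.21 without the mESC libraries numbered 1.

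The main counts stayed within 1.5 times in 338 alternative values and moved further in 49, nearly all on TPM. In the same order of TPM settings, mCtx over mESC nucleoplasm had 12016, 12285 and 13610 genes higher (7076 in edgeR). mNPC over mESC nucleoplasm had 83, 88 and 82 members higher and 66, 72 and 61 lower, with 2058, 2362 and 2159 genes higher (6506) and 11454, 13653 and 12420 lower (7575). mCtx over mNPC nucleoplasm had 191, 188 and 189 members higher and 25, 25 and 25 lower, with 17013, 17992 and 19075 genes higher (6725) and 1526, 1600 and 1609 lower (6369). In mNPC cytoplasm over chromatin 11065, 12781 and 12156 genes were lower (6753), in nucleoplasm over chromatin 2906, 3102 and 2853 were higher (5937) and 12089, 13965 and 13136 lower (6117), and in cytoplasm over nucleoplasm 1879, 2247 and 1846 were lower (4118). Members lower in mNPC cytoplasm than nucleoplasm numbered 105 on log2(TPM + 1) and 101 without a filter, and 62 were higher in cytoplasm than chromatin without a filter. The cause was not tested. Members lower in mCtx over mESC nucleoplasm numbered 1 on unfiltered TPM, 4 without the third mESC nucleoplasm library and 5 without the mESC libraries numbered 1, an alternative chosen after seeing the data. The number of members was 780, 56, 12 and 85 under a ratio of 4, a ratio of 16, TPM and TMM sizes, and 278 without the mESC libraries numbered 1.

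Leaving out each library in turn gave 240 to 288 members, and 216 to 224 members higher and 2 to 4 lower in mCtx over mESC nucleoplasm, 185 to 201 and 23 to 32 in mNPC over mESC, 106 to 108 and 85 to 95 in mCtx over mNPC, 88 to 93 and 104 to 106 in mNPC cytoplasm over chromatin, 149 to 155 and 48 to 53 in nucleoplasm over chromatin, and 23 to 27 and 157 to 163 in cytoplasm over nucleoplasm. Same-numbered libraries correlated by -0.06 to 0.06 between cell types and -0.01 to 0.19 between mNPC fractions, so the numbers were not taken to pair them. Still, 6 of 6 mNPC chromatin and cytoplasm libraries correlated best with their own number. So did 5 of 6 of nucleoplasm and chromatin and 2 of 6 of cytoplasm and nucleoplasm. The main tests within mNPC thus treat the fractions as unpaired. With the replicate block 219 members were higher and 2 lower in mCtx over mESC nucleoplasm, 105 higher and 114 lower in mNPC cytoplasm over chromatin, and 28 higher and 176 lower in mNPC cytoplasm over nucleoplasm. Genes at a few CPM, such as Gpr21 in mNPC and mESC, rest on few reads.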
